A study of Mus musculus with 8 samples.

Results

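The carbonic anhydrases are described here across the triceps of Nf1Prx1 and control mice, as 10 genes (Car1, Car2, Car3, Car4, Car5a, Car5b, Car8, Car9, Car13 and Car14) of 19938 measured. The genes were selected on their log2 levels in control and Nf1Prx1 arrays and the authors' probe set means, with those values in view, so the control against Nf1Prx1 values below are a description of these 10 genes and carry no test. Each gene is given by the transcript cluster (the array's unit for 1 gene) with the highest mean, in log2 intensity. The study profiled 4 wild-type control mice and 4 Nf1Prx1 mice, all aged 3 months and fed standard chow, with 1 triceps and 1 Affymetrix Mouse Gene 1.0 ST array per animal. The name Nf1Prx1 stands for loss of Nf1 by Cre under control of a Prx1 limb enhancer, known to act in limb bud mesenchyme rather than in all cells of a muscle. Nf1 encodes neurofibromin, which turns Ras off. The control genotype is given only as wild type, and whether those mice carried floxed alleles or Cre is not given in the sources used here.

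Carbonic anhydrases are zinc enzymes that interconvert CO2 and water with bicarbonate and a proton. Cytosolic forms buffer the cell and speed CO2 transport, membrane forms act on the outer face of fibres and capillaries, and mitochondrial forms supply bicarbonate to carboxylases such as pyruvate carboxylase. In muscle the family is best known for Car3, an abundant cytosolic protein of slow fibres that fat cells also make in large amounts.

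Array medians lay between 7.23 and 7.39 on the log2 scale. The 8 arrays held fast-fibre transcripts at high levels, with Atp2a1 between 13.63 and 14.07 in every array. Nf1 over the whole transcript averaged 8.85 ± 0.12 in controls and 8.72 ± 0.07 in Nf1Prx1 mice (SD, n = 4; limma adjusted p = 0.599), a level that does not report on a partial deletion in some of the cells. Both arrays with the label number 1 stood apart: the brown fat gene Ucp1 was at 10.18 in control 1 and 9.75 in Nf1Prx1 1 against 6.01 to 6.24 in the other arrays, and the neutrophil granule gene Ngp was at 10.98 and 11.57 against 5.45 to 7.06. For the 10 carbonic anhydrases the log2 differences are therefore given with and without this pair, and for other genes over all 8 arrays only. By Xist and Y-linked transcripts, control 2, control 4, Nf1Prx1 3 and Nf1Prx1 4 were of one sex and the other 4 arrays of the other.

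Of the 10 genes, 6 had a higher and 4 a lower mean in Nf1Prx1 triceps, with a median log2 difference of 0.08 against -0.04 over all 19938 genes. Car5b was at least 1.5-fold higher, where 2.7% of all genes were, and Car8 at least 1.5-fold lower, where 1.9% were. The groups were fully apart in 0 of the 10 genes, against 2.58% of all genes apart toward higher and 6.04% toward lower levels. limma without pairing called 0 of the 10 and 0.0% of all genes, although 2709 genes had an unadjusted p under 0.05. With the label number as a block it called 8.36% of all genes and 1 of the 10, Car5b. These counts come from the contrast that was in view when the genes were chosen, and nothing is read from them.

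**Figure D1:**
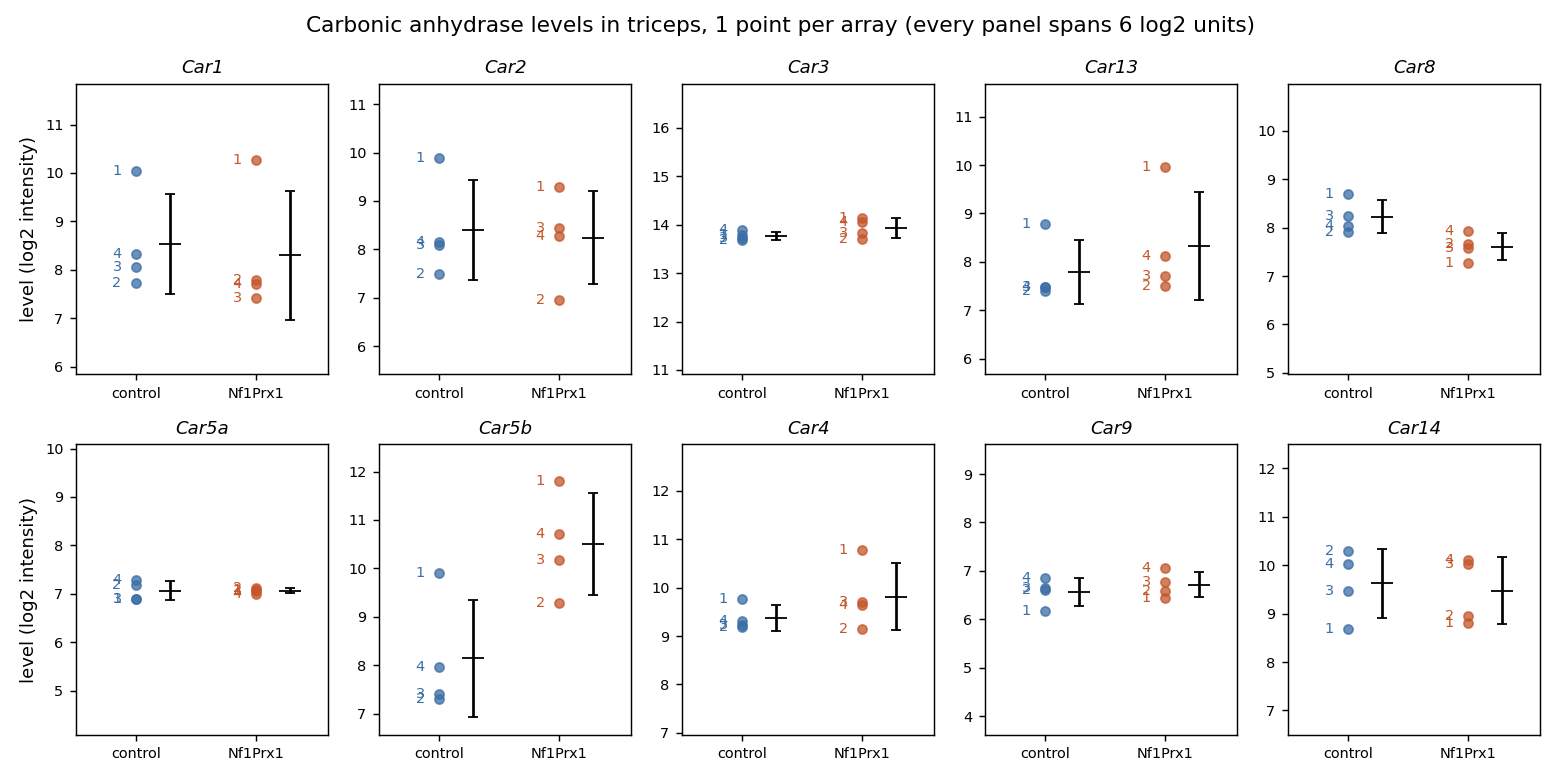
Level in log2 intensity (vertical axis) of each carbonic anhydrase gene by group, 1 point per array with its label number, and the mean with SD (n = 4) beside the points. Car5b shows the widest separation, with only control 1 above the lowest Nf1Prx1 array, and both arrays numbered 1 lie at the top of Car1, Car2 and Car13.

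Of the mitochondrial pair, Car5b had the largest difference of the 10 genes in either direction and Car5a the smallest. Car5b, whose protein works in the mitochondria of many tissues, was at 9.91, 7.31, 7.41 and 7.96 in control 1 to 4 and at 11.81, 9.29, 10.17 and 10.72 in Nf1Prx1 1 to 4. Control 1 lay above Nf1Prx1 2, and the other 3 control arrays lay below every Nf1Prx1 array. The mean was 8.15 ± 1.21 in control and 10.50 ± 1.06 in Nf1Prx1 (SD, n = 4), a log2 difference of 2.35 (SE 0.66) or 5.10-fold, which was number 4 of 19938 by size in either direction. The Nf1Prx1 array was higher in each same-numbered pair, by 1.90, 1.98, 2.76 and 2.76. Without both arrays numbered 1 the difference was 2.50, with control at 7.31 to 7.96 and Nf1Prx1 at 9.29 to 10.72. Car5b is X-linked, and the difference was 1.89 among the 4 arrays with low Xist and 2.81 among the 4 with high Xist. Car5a, the mitochondrial form known from liver, was at 6.89, 7.17, 6.90 and 7.28 in control and 7.08, 7.12, 7.06 and 7.00 in Nf1Prx1 triceps. All 8 arrays thus lay within 0.38, and the means of 7.06 ± 0.19 and 7.07 ± 0.05 (SD, n = 4) differed by 0.00 (SE 0.11), or by -0.06 without both arrays numbered 1.

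The regions upstream of this mitochondrial pair are shown as a description. Whether these sequences bear on the levels of Car5b or Car5a was not tested. Each line gives the 250 bases before the RefSeq start in build GRCm38.p6, with matches to the letters CCAAT or GGGCGG on either strand in capitals. The Car5b region is chrX:164028011-164028260 and the Car5a region chr8:121944913-121945162, both on the minus strand and written 5′ to 3′.
Car5b: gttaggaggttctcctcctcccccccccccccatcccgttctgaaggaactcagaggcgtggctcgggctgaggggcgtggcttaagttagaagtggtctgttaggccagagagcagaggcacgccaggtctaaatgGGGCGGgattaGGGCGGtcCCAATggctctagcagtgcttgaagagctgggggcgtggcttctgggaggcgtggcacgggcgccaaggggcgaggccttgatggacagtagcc
Car5a: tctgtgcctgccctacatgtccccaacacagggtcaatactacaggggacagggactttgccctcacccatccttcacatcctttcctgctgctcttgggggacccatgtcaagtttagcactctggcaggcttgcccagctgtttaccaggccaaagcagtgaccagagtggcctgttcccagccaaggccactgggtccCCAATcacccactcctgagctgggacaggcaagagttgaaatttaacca
The Car5b region held 2 GGGCGG and 1 CCAAT match, was 63.6% G or C and had 12 CpG dinucleotides. The Car5a region held 1 CCAAT and 0 GGGCGG matches, was 56.0% G or C and had 0 CpG. Over 32851 such regions the median was 52.4% G or C and 6 CpG, and 32.7% held GGGCGG and 33.8% CCAAT. The letters TATAAA, found in 12.4% of regions on either strand, were in neither sequence. Neither were CACGTG, an E-box found in 6.02%, nor the nuclear receptor half-site AGGTCA, found in 14.0%. No matches overlapped. RefSeq regions were matched for 5 of the 10 genes.

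Car5b moved with adipocyte markers from array to array, and markers of other cells were higher in Nf1Prx1 too. The mean of 8 measured white adipocyte markers (of 9 listed), taken as the log2 difference from the control mean, was 1.86, -0.54, -0.76 and -0.56 in control 1 to 4 and 3.06, 0.78, 1.15 and 1.63 in Nf1Prx1 1 to 4. All 8 markers had a higher mean in Nf1Prx1. With the block all 8 were called, where 8.36% of all genes were, and without it 0 were. Adipoq, the adipocyte hormone adiponectin, was at 11.80 in control 1 and 8.32 to 8.72 in the other control arrays, and at 10.90 to 13.16 in Nf1Prx1 arrays. On the same scale Car5b exceeded the marker mean by 0.60, 0.36, 0.87 and 0.94 in Nf1Prx1 1 to 4, and by -0.10, -0.30, 0.02 and 0.38 in control 1 to 4. Control 4 lay just above Nf1Prx1 2 in this excess. The excess is over a mean of unlike markers. Their log2 differences between the groups ran from 1.00 (Lep) to 2.35 (Adipoq), against 2.35 for Car5b. The fibroblast list (6 of 6 measured and higher, 4 of them called with the block) was at 0.61, -0.42, -0.15 and -0.04 in control 1 to 4 and at 0.79, 0.11, 0.65 and 0.79 in Nf1Prx1 1 to 4. The macrophage list (7 of 7 higher, 4 called with the block) was at 0.58, -0.48, -0.13 and 0.03 in control and at 0.77, 0.34, 0.63 and 0.79 in Nf1Prx1. Both lists were thus lowest in control 2 and, within Nf1Prx1, in Nf1Prx1 2, as Car5b was, over a narrower range. The part of adipocyte, fibroblast or macrophage transcripts in the Car5b difference was not tested, and in whole muscle more cells of a type and more RNA per cell cannot be told apart. By Pearson correlation over the 8 arrays the genes most like Car5b were Ntrk2 (0.990), Agpat2 (0.989), Cidec (0.989), Naaa (0.987) and Nbea (0.986). Agpat2 makes phosphatidic acid for triglyceride synthesis. Cidec, which coats lipid droplets, is itself one of the white adipocyte markers averaged above. Over the 6 arrays without number 1 these correlations were 0.981 to 0.993. The points come from both groups, so the correlations include the difference between them. Of the neighbouring X-linked genes, Rnf138rt1 had a log2 difference of -0.09 (SE 0.09, limma adjusted p = 0.745). Ap1s2, an adaptor subunit of vesicle coats, had one of -0.42 (SE 0.20, limma adjusted p = 0.410), Siah1b, a ubiquitin ligase, of -0.04 (SE 0.12, adjusted p = 0.921) and Cltrn of 0.01 (SE 0.13, adjusted p = 0.984), so 0 of these 4 passed.

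**Figure D2:**
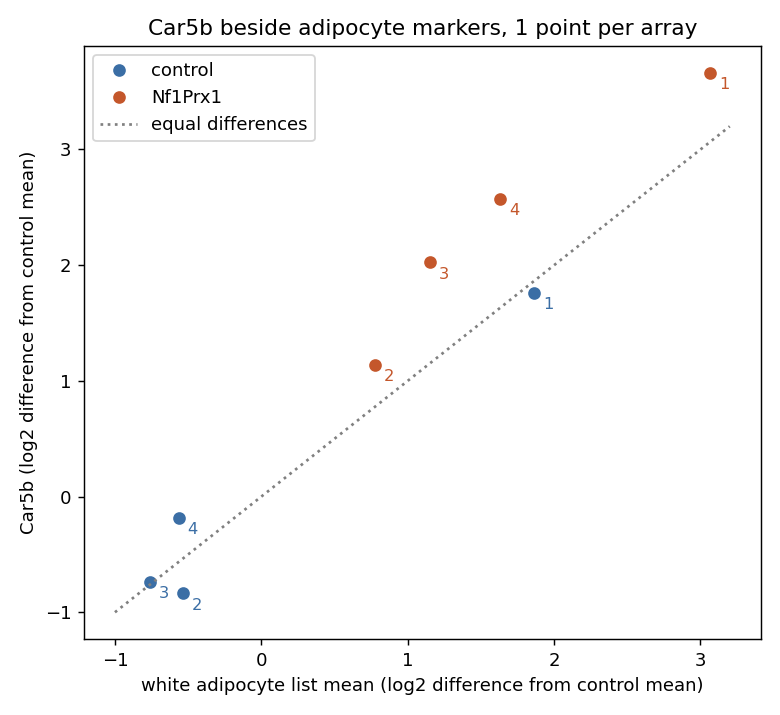
Car5b (vertical axis) against the mean of the white adipocyte markers (horizontal axis), both as the log2 difference from the control mean, 1 point per array with its label number. The dotted line marks equal differences, and the 4 Nf1Prx1 arrays lie 0.36 to 0.94 above it. Single markers differed between the groups by 1.00 (Lep) to 2.35 (Adipoq), against 2.35 for Car5b.

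Along the gene, 7 of the 8 Car5b probe sets of the authors' deposited table showed the difference. A probe set covers a stretch of the gene. The SDs and T values of the authors' deposited table imply 5.0 arrays per group and its notes give 4, and no match to the 8 arrays above could be made. In the authors' deposited table the 7 were higher in Nf1Prx1 muscle by 2.23 to 2.95 on the log2 scale, the largest being the 4th, at 7.6 in control and 10.6 in Nf1Prx1 muscle. The 1st (10607739) was at 4.7 and 4.5 in the authors' deposited table. The groups' minima and maxima overlapped in all 8, as in the 4th, with controls from 6.2 to 9.9 and Nf1Prx1 from 9.4 to 11.8 in the authors' deposited table. None of the 8 is in the authors' deposited lists, which take probe sets with F above 20 and hold 0.765% of 234873 probe sets as higher and 0.367% as lower.

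**Figure D3:**
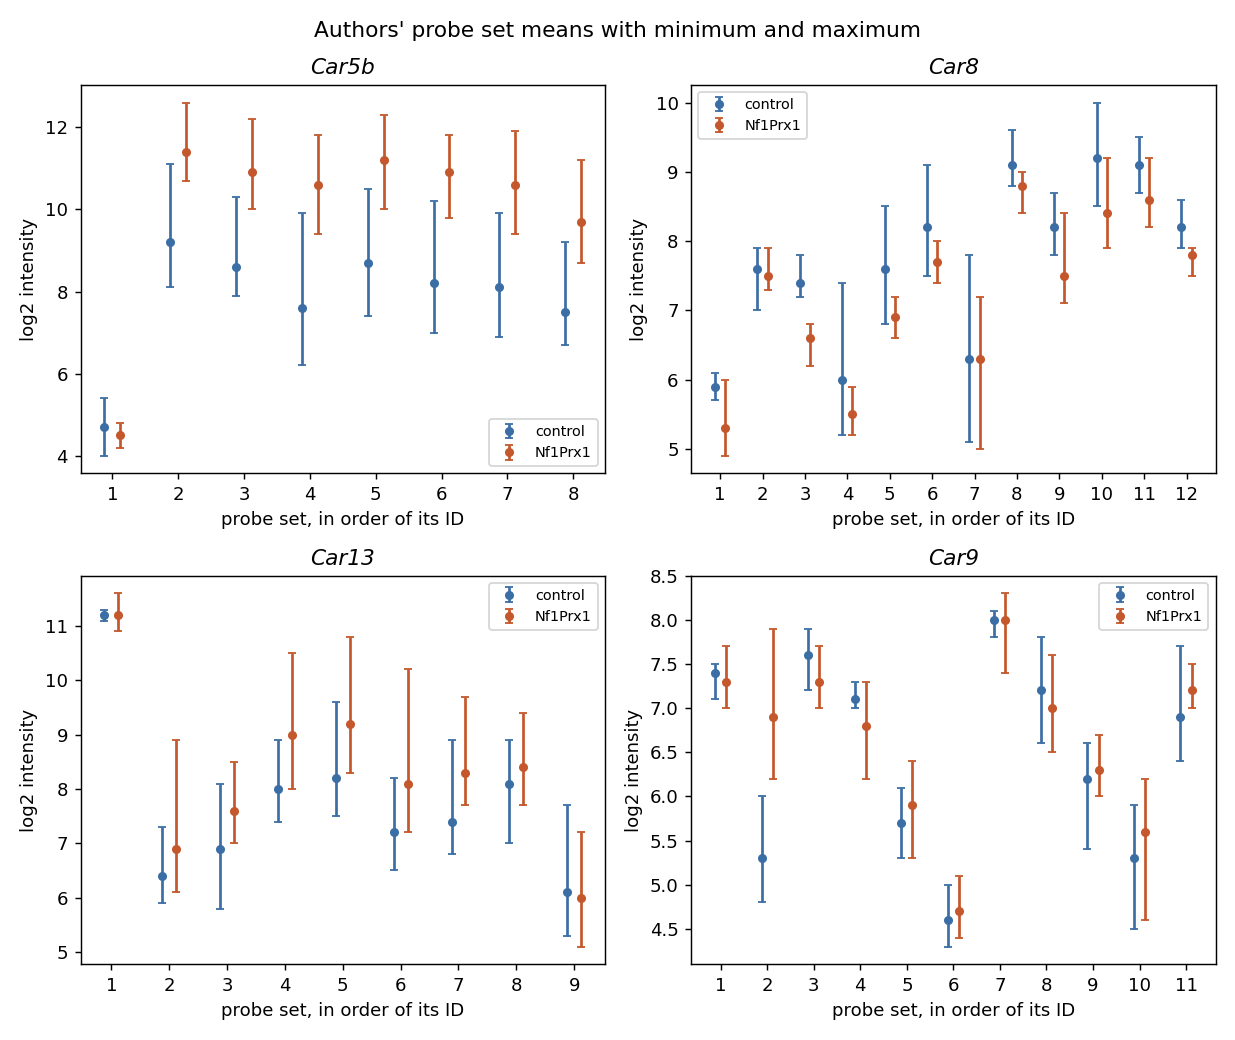
Authors' group means in log2 intensity (vertical axis) with minimum and maximum for each probe set of Car5b, Car8, Car13 and Car9, in order of probe set ID (horizontal axis). In Car5b all but the 1st probe set are higher in Nf1Prx1, in Car8 all 12 have a lower mean, and in Car9 only the 2nd stands apart.

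Car8, a member without catalytic activity that is known to bind the inositol trisphosphate receptor, was the lowest relative to control. It was at 8.69, 7.91, 8.24 and 8.04 in control and at 7.26, 7.66, 7.58 and 7.93 in Nf1Prx1 triceps. The groups met at a single point, with Nf1Prx1 4 just above control 2. The means were 8.22 ± 0.34 and 7.61 ± 0.27 (SD, n = 4), a log2 difference of -0.62 (SE 0.19) or 1.53-fold lower, and the Nf1Prx1 array was lower in each of the 4 same-numbered pairs, by 1.43, 0.26, 0.67 and 0.11 in pairs 1 to 4. Pair 1 gave the largest gap, and without it the difference was -0.34. All 12 Car8 probe sets of the authors' deposited table had a lower mean in Nf1Prx1 muscle, by up to 0.84. The 3rd (10511432) is in their list of lower probe sets, where the authors' deposited table gives 7.4 for control (7.2 to 7.8) and 6.6 for Nf1Prx1 muscle (6.2 to 6.8).

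Of the cytosolic enzymes, Car3 had a slightly higher mean in Nf1Prx1 triceps, with the groups overlapping. It was at 13.78, 13.69, 13.72 and 13.89 in control and at 14.14, 13.70, 13.83 and 14.06 in Nf1Prx1 triceps. Nf1Prx1 1 and Nf1Prx1 4 lay above every control array, and the other Nf1Prx1 arrays lay among them. The Nf1Prx1 array was higher in each same-numbered pair, by 0.36, 0.01, 0.11 and 0.17. The means were 13.77 ± 0.09 and 13.93 ± 0.20 (SD, n = 4), 1.12-fold apart (log2 difference 0.16, SE 0.12). Without both arrays numbered 1 the difference was 0.10, and without Nf1Prx1 1 alone 0.09. The slow-fibre list, with 10 of 10 markers measured and 9 of them lower in Nf1Prx1, had means of -1.27, -1.54, 0.28 and -1.53 in Nf1Prx1 1 to 4 relative to control, against -0.31 to 0.23 in control arrays. Car3 was thus highest in 2 of the 3 arrays where slow-fibre transcripts were lowest. Within Nf1Prx1 the white adipocyte list was highest in the same arrays, Nf1Prx1 1 (3.06) and Nf1Prx1 4 (1.63). It was also high in control 1 (1.86), where Car3 lay among the other controls. The part of either cell type in the Car3 values was not tested. The Car3 level was close to the highest value on any array, which ran from 14.42 to 14.61, so a difference may be compressed. In the authors' deposited table all 9 Car3 probe sets had a higher mean in Nf1Prx1 muscle. The 8 with control means of 12.9 to 14.0 in the authors' deposited table differed by 0.07 to 0.34, and the 9th (10490922), at 11.0 in control and 11.7 in Nf1Prx1 muscle, by 0.72.

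Car1 and Car2 are the carbonic anhydrases of red blood cells, and Car2 is also known from osteoclasts and kidney. Car1 was at 10.04 in control 1 and 10.28 in Nf1Prx1 1, against 7.72 to 8.32 in the other control and 7.41 to 7.80 in the other Nf1Prx1 arrays. The number 1 array was the highest of its group in both, and the log2 difference between the groups was -0.24 (SE 0.69). Without that pair it was -0.39, without control 1 alone 0.26 and without Nf1Prx1 1 alone -0.90. Of 10 erythroid markers 3 had a cluster with 1 gene symbol, and haemoglobin genes were not among them. Slc4a1, the anion exchanger of red cells, was at 9.43 and 9.54 in the number 1 arrays and at 6.99 to 7.73 in the others. Alas2, the haem synthesis enzyme of red cell precursors, was at 8.58 to 9.55 in control arrays, at 9.09 in Nf1Prx1 1 and at 7.30 to 7.85 in the other Nf1Prx1 arrays. The part of red cell transcripts in the Car1 levels was not tested. The genes most like Car1 over the 8 arrays were Hmgb2 (0.985), Mkrn1 (0.983), Mmp8 (0.981), Epb42 (0.978) and Nsa2 (0.975), and over the 6 arrays without number 1 these correlations were 0.608 to 0.853.

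Car2 was at 9.89, 7.50, 8.09 and 8.16 in control and at 9.30, 6.96, 8.44 and 8.27 in Nf1Prx1 triceps. Number 1 was highest and number 2 lowest in each group, and the groups overlapped throughout (8.41 ± 1.03 and 8.24 ± 0.97, SD, n = 4; log2 difference -0.17, SE 0.58). The direction was not stable, at 0.33 without control 1, 0.26 without Nf1Prx1 2 and -0.52 without Nf1Prx1 1. Without both arrays numbered 1 it was -0.02. The genes most like Car2 were Lyrm2 (0.985), Chmp5 (0.984), Fth1 (0.980), Hexa (0.980) and Actr6 (0.976), and these stayed at 0.921 to 0.969 over the 6 arrays without number 1.

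Car13, a cytosolic enzyme of many tissues, was at 8.78, 7.40, 7.48 and 7.49 in control and at 9.96, 7.50, 7.71 and 8.13 in Nf1Prx1 triceps. Each same-numbered pair was higher in Nf1Prx1, by 1.18, 0.10, 0.23 and 0.64, and the log2 difference of 0.54 (SE 0.54) was within the spread between arrays. It was -0.01 without Nf1Prx1 1 and 0.32 without the whole pair. By the authors' deposited table, 8 of 9 Car13 probe sets had a higher mean in Nf1Prx1 muscle, by up to 0.96. The 1st of them (10490904), at 11.2 in both groups in the authors' deposited table, differed by 0.03. Car13, Car1, Car3 and Car2 follow each other in this order on chromosome 3, with only pseudogenes and a long noncoding RNA between them in RefSeq. Both number 1 arrays were the highest 2 of the 8 in Car13, Car1 and Car2. In Car3 Nf1Prx1 1 was the highest array and control 1 lay among the other controls.

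**Figure D4:**
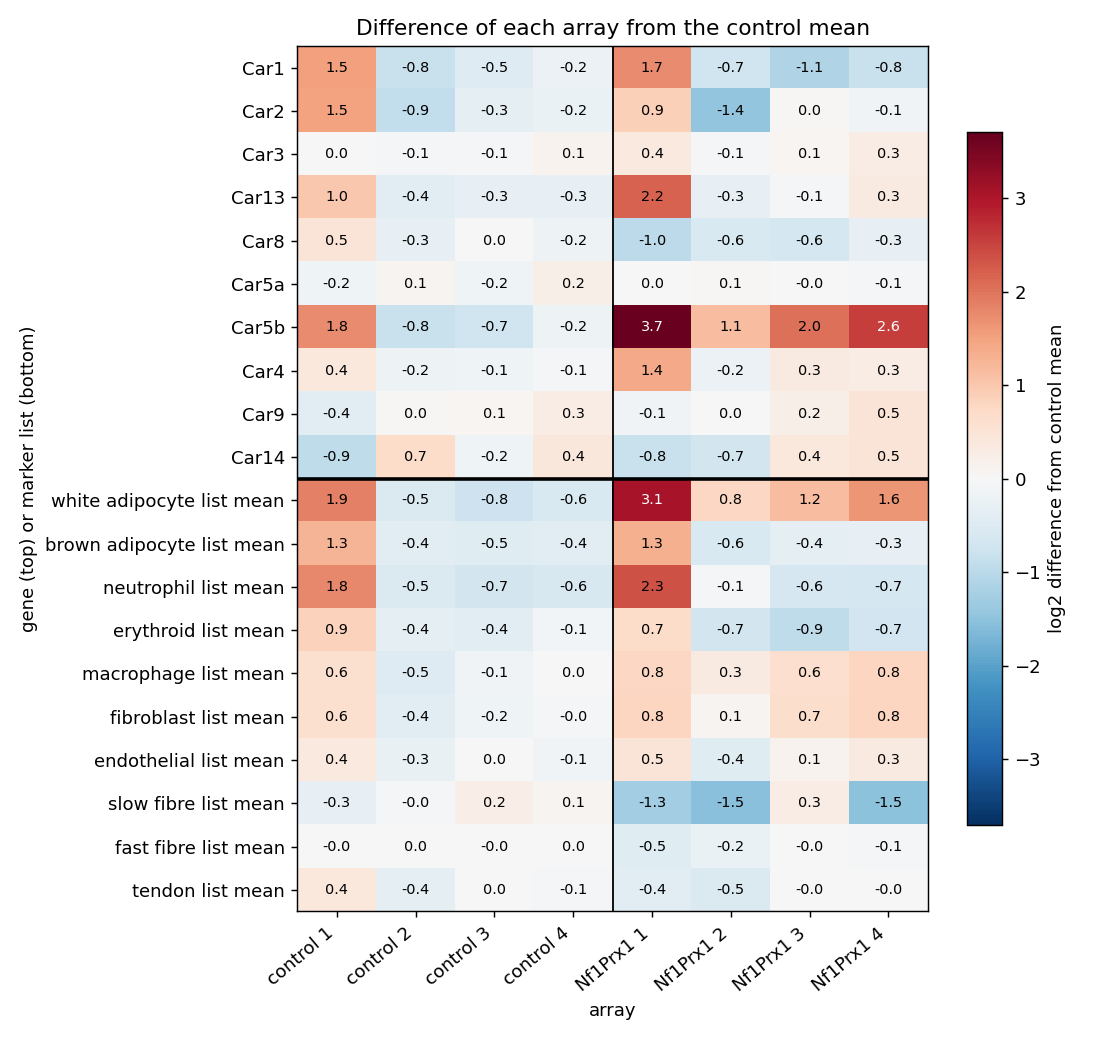
Log2 difference of each array (columns) from the control mean for the 10 genes (upper rows) and for the means of 10 marker lists (lower rows), blue for lower and red for higher. Car5b and the white adipocyte list are high in control 1 and all 4 Nf1Prx1 arrays, and Car1, Car2 and Car13 are high in both arrays numbered 1, where the neutrophil, brown adipocyte and erythroid lists are high too.

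Among the membrane enzymes, Car4 is anchored to the surface of capillaries and fibres. It was at 9.77, 9.19, 9.23 and 9.31 in control and at 10.77, 9.15, 9.70 and 9.65 in Nf1Prx1 triceps. Nf1Prx1 1 lay far above the rest and Nf1Prx1 2 below every control array. The log2 difference of 0.44 (SE 0.31) was 0.12 without Nf1Prx1 1 and 0.26 without both arrays numbered 1. The endothelial list, with 8 of 8 markers measured, 5 higher and 3 lower in Nf1Prx1, was highest in Nf1Prx1 1 (0.49) and control 1 (0.37). It was lowest in Nf1Prx1 2 (-0.45), as Car4 was. The list shares Fabp4, at 13.27 in Nf1Prx1 1 and 12.43 in control 1, with the white adipocyte list. Tek, Tie1 and Emcn were lower in Nf1Prx1 1 than in control 1, and the rest were higher. The part of endothelial transcripts in the Car4 values was not tested. All 8 Car4 probe sets of the authors' deposited table had a higher mean in Nf1Prx1 muscle, by 0.20 to 0.90.

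Car14, a transmembrane enzyme of muscle fibres, was at 8.69, 10.30, 9.47 and 10.03 in control and at 8.80, 8.95, 10.02 and 10.11 in Nf1Prx1 triceps. Both groups spanned nearly the same range (9.62 ± 0.71 and 9.47 ± 0.69, SD, n = 4; log2 difference -0.15, SE 0.41), and only Nf1Prx1 2 lay clearly below its same-numbered control, by 1.35. That pair joins unlike sexes, with Xist high in control 2 and low in Nf1Prx1 2. Car14 was higher in the high-Xist arrays of both groups, so sex and group cannot be told apart in this gap. Without both arrays numbered 1 the difference was -0.24. Leaving out 1 array at a time gave values from -0.46, without control 1, to 0.07, without control 2 or Nf1Prx1 1, so its direction was not stable. It was -0.34 without Nf1Prx1 3, -0.37 without Nf1Prx1 4, -0.02 without control 4 and 0.02 without Nf1Prx1 2.

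Car9, the membrane form known for its induction by low oxygen, was the only one of the 10 in the dimmest 30% of genes. Its levels were 6.17, 6.60, 6.64 and 6.86 in control 1 to 4 and 6.44, 6.59, 6.78 and 7.06 in Nf1Prx1 1 to 4 (6.57 ± 0.29 and 6.72 ± 0.26, SD, n = 4; log2 difference 0.15, SE 0.17). The groups overlapped, and the difference was 0.11 without both arrays numbered 1, from 0.02 without control 1 to 0.25 without control 4. In the authors' deposited table the 2nd of its 11 probe sets (10504339) had a mean of 5.3 for control (4.8 to 6.0) and 6.9 for Nf1Prx1 muscle (6.2 to 7.9), 2.97-fold higher with an F of 19.7, just short of their limit of 20. Across the authors' deposited table, minima and maxima were apart toward higher levels in 1.83% and toward lower levels in 1.38% of probe sets. The other 10 Car9 probe sets differed by at most 0.31 in either direction in the authors' deposited table.

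**Figure D5:**
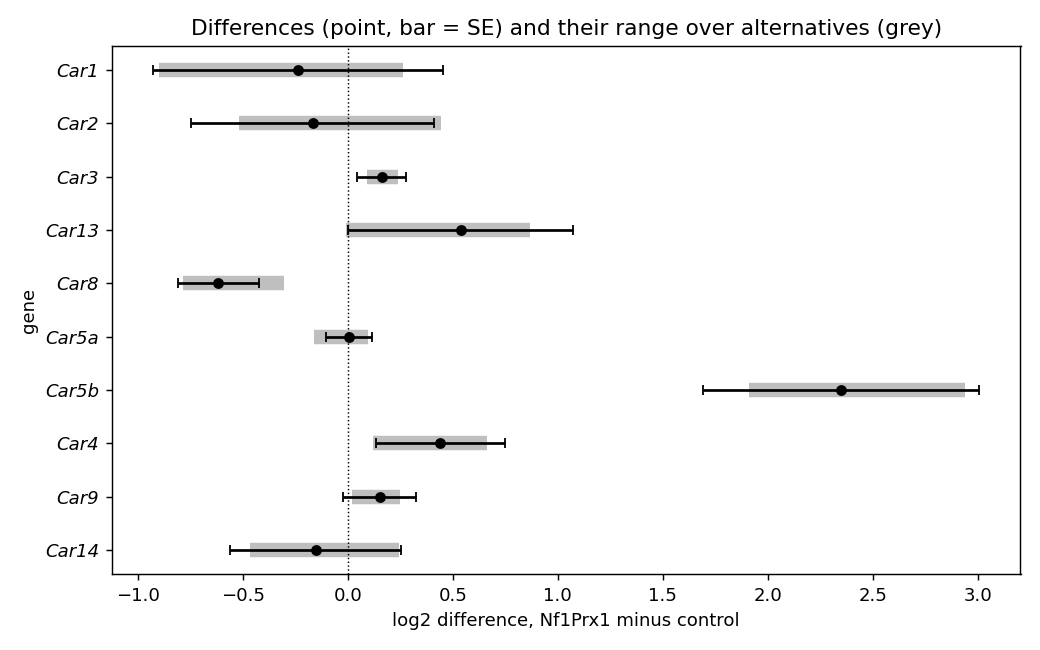
Log2 difference, Nf1Prx1 minus control (horizontal axis), for each gene (vertical axis) as a point with its SE, and in grey the lowest to highest value over the alternatives run. Car5b ranges from 1.91 to 2.94 and Car8 from -0.78 to -0.30, while the ranges of Car1, Car2, Car5a, Car13 and Car14 cross 0.

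The 6 further carbonic anhydrase genes on the array (Car6, Car7, Car10, Car11, Car12 and Car15) all had slightly lower means in Nf1Prx1 triceps, and 0 passed in limma with or without the block, nor at an unadjusted p under 0.05 in either fit. Their median log2 difference was -0.09. Car11 was at 8.95 ± 0.12 and 8.75 ± 0.05 (SD, n = 4; limma adjusted p = 0.395) and Car12 at 6.84 ± 0.05 and 6.69 ± 0.09 (adjusted p = 0.502).

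Genes that use or move the products of these enzymes were counted in the same fits. Of 27 measured transporters and partners for bicarbonate, protons, lactate, water and CO2 (of 32 listed), 0 passed in limma without the block. An unadjusted p under 0.05 was reached by 7, as by 2709 of all 19938 genes. Of these 7, Slc9a9 was higher in Nf1Prx1 and the others were lower. With the block 3 rose and 2 fell, where 3.36% and 5.0% of all genes did, and the list's median difference was 0.00. Slc16a7, the lactate and pyruvate carrier MCT2, rose 2.50-fold, from 7.66 ± 0.94 to 8.98 ± 1.24 (SD, n = 4; limma adjusted p = 0.00500 with the block and 0.404 without). Control 1 lay above 3 of the 4 Nf1Prx1 arrays in Slc16a7, at 9.06 against 8.25 to 8.48. The endosomal sodium-proton exchanger Slc9a9 rose 1.56-fold (adjusted p = 0.0161 with the block, 0.182 without), and Emb, embigin, a partner of lactate carriers, rose 1.74-fold (adjusted p = 0.0174 with the block, 0.398 without). The exchanger Slc9a2 fell 1.54-fold (adjusted p = 0.0431 with the block, 0.327 without). The fifth gene, Slc16a3, the lactate exporter MCT4 of fast fibres, fell 1.53-fold (adjusted p = 0.0485 with the block, 0.468 without). Slc16a1, the lactate carrier MCT1, was 1.57-fold lower and did not pass (limma adjusted p = 0.220, and 0.0582 with the block). Its groups were apart, with controls from 9.73 to 9.98 and Nf1Prx1 arrays from 8.52 to 9.48. Those of Aqp1 were apart too, with controls from 10.82 to 11.04 and Nf1Prx1 arrays from 10.01 to 10.73. Over all genes, 6.04% were apart toward lower levels.

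Of 13 carboxylases and related genes, 0 passed in limma without the block and 1 had an unadjusted p under 0.05, as 2709 of all 19938 genes did. With the block 2 rose and 0 fell, where 3.36% and 5.0% of all genes did, with a list median of -0.05. Acaca, acetyl-CoA carboxylase of fatty acid synthesis, rose 2.95-fold, from 9.06 ± 1.40 to 10.62 ± 1.08 (SD, n = 4; limma adjusted p = 0.0102 with the block, 0.387 without). Pck1, the phosphoenolpyruvate carboxykinase that feeds glycerol synthesis in fat cells and is also among the white adipocyte markers, rose 3.23-fold (adjusted p = 0.00393 with the block, 0.392 without). Control 1 had the second highest level of all 8 arrays in both genes, at 11.13 and 10.90. Pck2, the mitochondrial counterpart of Pck1, went from 8.05 to 8.42 and did not pass (limma adjusted p = 0.306, and 0.0984 with the block). Its groups were apart, with controls from 7.95 to 8.14 and Nf1Prx1 arrays from 8.18 to 8.84. Over all genes, 2.58% were apart toward higher levels.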

How the data were processed

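Triceps RNA of 8 mice was measured on 1 Affymetrix Mouse Gene 1.0 ST array each. The labels name RMA and the Affymetrix Expression Console as the authors' tools, and the deposited array values are log2 intensity per transcript cluster. Versions and genome build are not given in the sources used here. The number of arrays limits the precision. The deposited probe set table holds, per the file headers, the authors' group means in log2 intensity, an unadjusted p-value, a control-to-mutant ratio, and signed fold, F and T scores. That p-value was not used. The deposited lists of higher and lower probe sets were used as membership only.

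Of 35556 clusters, 21789 had 1 gene symbol and 1621 had several. Symbols were updated through Entrez IDs (21698 matched), and the brightest cluster stood for each of 19938 genes. limma 3.58.1 under R 4.3.3 gave the group differences (lmFit, eBayes, two-sided, Benjamini-Hochberg over all genes, threshold 0.05). The code was also run on simulated independent arrays with no effect of the label number. Those arrays lack the number 1 pattern of the real ones, so that run does not bear on the calls made here. The labels state no pairing, and the main fit did not pair the arrays. The label numbers 1 to 4 served as a block in an alternative. Deviations from the group means correlated at 0.30 to 0.71 for equal numbers, above the limit of 0.1. Other pairs ran from -0.53 to 0.30, so the limit does not single out the numbered pairs, and p-values with the block may be too small. Nothing says what the numbers stand for, and by Xist the numbers 2 and 3 each join arrays of unlike sex. No sample was left out of the main fit.

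The members and all lists were chosen with earlier results of these data known. The rule for named genes takes all members, Nf1, up to 4 passing genes of each further list by smallest p or the 2 smallest p where none passes, and the 5 genes with the highest Pearson correlation for each of the 3 members with the largest SD over the arrays. The X-linked neighbours of Car5b, and Slc16a3 and Aqp1, were added later, the neighbours by position and Slc16a3 and Aqp1 after their values were seen. Alternatives were another normalization, a filter on the dimmest 30% of genes, cluster choice, variance model, array weights, the block, the Xist class, and arrays left out. The Xist class was set against Eif2s3y, since Ddx3y has no cluster with 1 symbol. Promoter sequences and gene order are from RefSeq (GRCm38.p6). Tables were handled with pandas 2.3.3 and figures drawn with matplotlib 3.10.9.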

Additional observations from a re-analysis of the deposited data

Results flagged for a closer look

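Within groups of 4, a value was singled out when its gap to the nearest other value exceeded Dixon's 95% critical share of the group's range, which chance does in about 1 in 20 groups. Of 20 groups checked for the 10 genes, 2 met this. Car1 in Nf1Prx1 1 was at 10.28, against 7.41 to 7.80 in the other Nf1Prx1 arrays. Car13 in control 1 was at 8.78, against 7.40 to 7.49 in the other control arrays. Both values come from the arrays numbered 1, which also held Ucp1 and neutrophil transcripts.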

How the results depend on the processing

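Over 22 alternatives the log2 differences of Car5b (1.91 to 2.94), Car3 (0.09 to 0.24), Car4 (0.12 to 0.66) and Car8 (-0.78 to -0.30) kept their direction, as did Car9 over the 21 that hold it (0.02 to 0.25). The sign turned in 2 alternatives for Car1 (-0.90 to 0.26), 4 for Car2 (-0.52 to 0.44), 11 for Car5a (-0.16 to 0.10), 1 for Car13 (-0.01 to 0.87) and 6 for Car14 (-0.46 to 0.25). Several of the 22 cannot move these differences. The dim filter, cluster choice, variance model, and the block and Xist class over all arrays left each gene's difference as in the main fit. Those settings therefore say nothing on whether a direction is stable. The median of the 10 genes ran from 0.03 to 0.22 over the alternatives that hold all of them. With the dim filter, which drops Car9, the median of the rest was 0.00. The count of genes called over all genes was 0 without the block and 1667 with the replicate block, 3070 with array weights, 5 after quantile normalization, 96 without both arrays numbered 1 and 1215 without Nf1Prx1 2 as well. Leaving out 1 array each gave 0 to 3, the 3 without Nf1Prx1 3. With the replicate block and without number 1, 2, 3 or 4 it was 719, 1202, 206 or 50. For the transport genes the count went from 0 to 5 with the replicate block, 8 with array weights, 1 without both arrays numbered 1, 6 without Nf1Prx1 2 as well, and 3, 7, 1 and 0 with the block without number 1, 2, 3 or 4. For the carboxylase genes it went from 0 to 2, 3, 1 and 2 in the same settings, and to 2, 3, 1 and 1 with the block without each number. Leaving out 1 array gave 0 for both lists. No alternative called any of the 6 further carbonic anhydrases. The cause of these changes was not tested. With 4 arrays per group and number 1 apart from the rest, differences within the spread between arrays are not resolved.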

Other observations

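Split by sex-linked transcripts into 4 arrays with low and 4 with high Xist (2 control and 2 Nf1Prx1 in each), several carbonic anhydrases gave unlike values, which were not tested. Car14 was higher in the high-Xist arrays of both groups, at means of 10.16 in control and 10.06 in Nf1Prx1 triceps, against 9.08 and 8.87 in the low-Xist arrays. Both arrays numbered 1 are among the low-Xist arrays. The Car8 difference was -1.01 among low-Xist and -0.22 among high-Xist arrays. The Car2 difference was -0.86 and 0.53. Car3 (0.17 and 0.16), Car4 (0.46 and 0.42) and Car13 (0.60 and 0.47) gave close values in both.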
